A study of Mus musculus with 20 samples.

Results

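The genes described here are 10 genes of steroid synthesis and activation: Star, Stard3, Cyp17a1, Hsd3b6, H6pd, Hsd11b1, Srd5a1, Fdx1, Fdxr and Por. They were chosen by symbol, and all 10 had 1 row each among the 25719 rows of the count table. Transcripts were counted in keratinocytes sorted from ear and back skin of 20 mice. All mice carried loxP-flanked Cyp11b1 (Cyp11b1 L2/L2), the gene of the enzyme that makes corticosterone in its last step. The knockout mice (cKO) also carried K14-CreERTam, a Cre active in cells that use the keratin 14 promoter and switched on by tamoxifen, and control littermates had no Cre. Every mouse received tamoxifen for 5 days and was sampled on day 6. In the topical groups it was put in ethanol on the shaved back (100 µl) and the ear (20 µl), at a concentration not given in the sources used here, and in the systemic groups 100 µl at 10 mg/ml in oil and ethanol was injected into the peritoneum. Each of the 4 groups (topical control, topical cKO, systemic control, systemic cKO) held 5 mice. Route, shaving and vehicle changed together and cannot be told apart, and ages are not given in the sources used here.

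Steroid hormones are made from cholesterol, which StAR-type proteins carry to the mitochondrion, where Cyp11a1 cuts its side chain. Enzymes of the endoplasmic reticulum (Hsd3b, Cyp17a1, Cyp21a1) and of the mitochondrion (Cyp11b1) then modify the product. The P450 enzymes among them draw electrons from Por (Cyp17a1, Cyp21a1) or from Fdxr and Fdx1 (Cyp11b1). Skin cells can also reactivate inert glucocorticoid with Hsd11b1, which depends on NADPH from H6pd, and can inactivate it with Hsd11b2 or Srd5a1.

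Library totals ran from 11.6 to 50.1 M counts, so 3 counts, the limit taken for detection in a library, were worth 0.0729 to 0.264 CPM (counts scaled to library size, corrected by TMM factors). Keratinocyte markers summed to at least 63100 CPM in every library. In 6 libraries (all 5 systemic controls and systemic cKO 2), Gm10800, a predicted gene, was at 61.2 to 29760 CPM, against at most 16.7 CPM in the 14 others. Outside the systemic controls, only systemic cKO 2 was over 50 CPM. Where that split is used as a covariate below, comparisons that involve the systemic controls rest on systemic cKO 2. Y-linked transcripts marked 3, 2, 3 and 2 mice of topical control, topical cKO, systemic control and systemic cKO as male.

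RefSeq windows of the 250 bases before the transcription start (build GRCm38.p6) were found for 8 of the 10 genes, all but Star and Cyp17a1, and were searched on both strands for 7 motifs. The palindromic glucocorticoid response element (the arms GNACA and TGTNC with 3 bases between them, N being any base) was found in 1 of the 8, that of Hsd3b6, and in 0.39% of all 32851 windows. No match to the steroidogenic factor 1 site CAAGGTCA (1.33% of all windows) or to the cyclic AMP response element TGACGTCA (1.55%) was found, and the sterol regulatory element TCACNCCAC (1.05%) occurred in that of Stard3. GC boxes (GGGCGG, in 32.7% of all windows) were found in Stard3, Srd5a1, Fdx1, Fdxr and Por, CCAAT (33.8%) in Stard3, H6pd, Hsd11b1, Srd5a1 and Fdxr, and TATAAA (12.4%) in none. A match is a run of letters, not a shown site. The Hsd3b6 window (chr3:98814444-98814693, minus strand) is shown for its response element, which starts 233 bases before the transcription start. The Srd5a1 window (chr13:69611464-69611713, minus strand) is shown because this gene came nearest to a difference between groups; it is 64.8% G and C, against a median of 52.4% over all windows. Each is written 5′ to 3′ with matches to the 7 motifs in capitals.
Hsd3b6: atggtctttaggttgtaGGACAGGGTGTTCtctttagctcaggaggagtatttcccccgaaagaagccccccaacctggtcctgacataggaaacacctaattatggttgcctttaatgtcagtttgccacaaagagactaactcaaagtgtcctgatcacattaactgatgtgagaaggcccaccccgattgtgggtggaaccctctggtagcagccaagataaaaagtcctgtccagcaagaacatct
Srd5a1: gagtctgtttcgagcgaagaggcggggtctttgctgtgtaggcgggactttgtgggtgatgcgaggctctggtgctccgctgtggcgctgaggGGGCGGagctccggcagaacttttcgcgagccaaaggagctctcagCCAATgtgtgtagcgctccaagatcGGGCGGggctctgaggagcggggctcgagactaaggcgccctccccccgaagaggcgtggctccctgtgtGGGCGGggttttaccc

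Cyp11b1 (ENSMUSG00000075604, chromosome 15, 74834125 to 74841643 in GRCm38) was looked at before the 10 genes, since it is the deleted one. It had 1, 2, 0, 5 and 1 counts in topical controls 1, 3, 5, 6 and 7, and 0, 1, 0, 6 and 0 in topical cKO 2, 3, 4, 5 and 7. After injection it had 0, 0, 0, 1 and 1 counts in controls 1, 3, 4, 5 and 6, and 0, 0, 4, 0 and 0 in cKO 2, 4, 5, 6 and 7. It thus reached 3 counts in 3 of 20 libraries. At so few counts no difference between genotypes could be detected (exact two-sided permutation p = 0.468 for topical and 1 for systemic mice, 252 arrangements each; adjusted p 0.825 and 1 over 8 such tests). Injected less topical mice differed by -0.11 in controls and -0.019 in cKO on the log2(CPM + 1) scale (exact permutation p = 0.159 and 0.722, adjusted 0.794 and 0.963). Without topical control 5 the value in controls was -0.15 (exact permutation p = 0.0397, unadjusted). Deletion in the sorted cells is therefore not shown by these counts, and cKO names the label.

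All but 1 of the 10 genes were present in nearly all libraries, while the enzyme that opens the pathway stayed under 3 counts in each. Star, Stard3, Cyp17a1, H6pd, Srd5a1, Fdx1, Fdxr and Por reached 3 counts in all 20 libraries and Hsd3b6 in 19. Hsd11b1 reached them in 10. Cyp11a1, the side-chain cleavage enzyme, had 2 counts in all 20 libraries together and reached 3 in none. Cyp21a1, which makes the substrate of Cyp11b1, had 7 counts in all and reached 3 in 1 library. Hsd3b1, Hsd3b2 and the aromatase gene Cyp19a1 had 0 counts, which allows each up to the CPM of 3 counts given above. Hsd3b6 was thus the counted gene of these 3 Hsd3b copies. Hsd11b2, which inactivates glucocorticoid, reached 3 counts in 3 libraries with 27 counts in all. Another steroid reductase gene, Srd5a2, had 4 counts in all and reached 3 in none. The bar chart of detection shows these gaps between well counted neighbours.

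**Figure D1:**
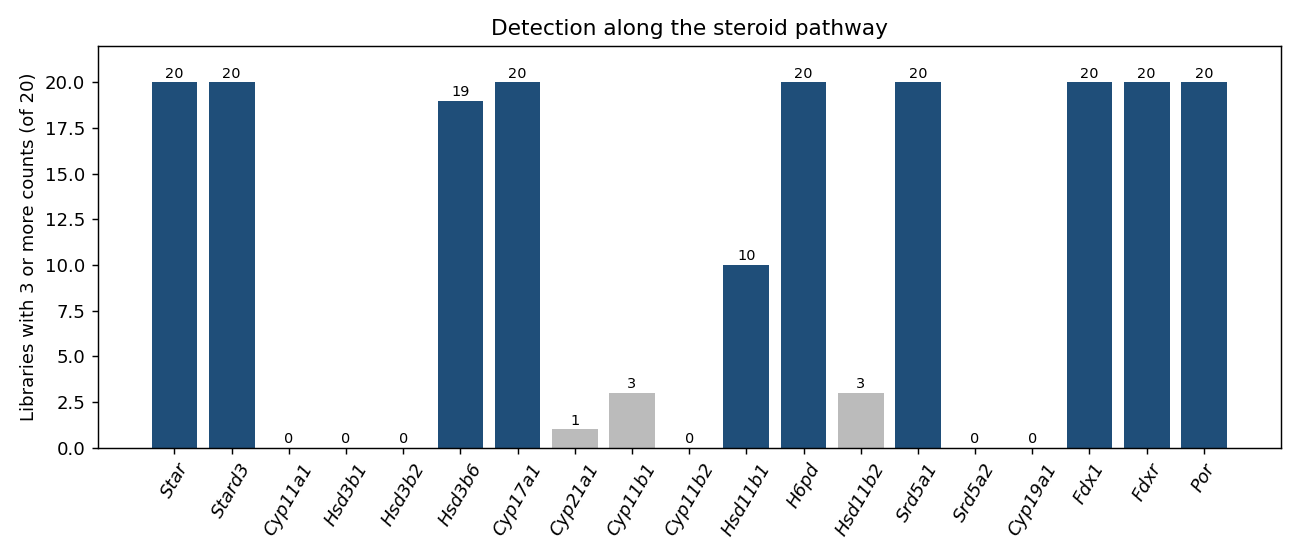
Number of the 20 libraries (y axis) in which each gene of the pathway (x axis) had 3 or more counts; dark bars are the 10 genes described here, grey bars other enzymes. Star, Stard3, Cyp17a1, H6pd, Srd5a1, Fdx1, Fdxr and Por stand at 20, and Cyp11a1, Hsd3b1, Hsd3b2, Cyp11b2, Srd5a2 and Cyp19a1 are among those at 0.

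Divided by exon length (kb of merged exons in GENCODE M21), levels fell into 3 tiers. Por led with 13.8 ± 2.65 CPM per kb (mean ± SD, n = 20), a level above that of 85.9% of the 12424 genes tested. Srd5a1 followed with 10.1 ± 2.37 and Fdx1 with 8.58 ± 1.80 CPM per kb. Por was above Srd5a1 in 17 of 20 libraries and Srd5a1 above Fdx1 in 14, with overlapping ranges. Fdx1 was above Stard3 in all 20 libraries without overlap, by 3.71 times in the means. Stard3 (2.32 ± 0.317), Cyp17a1 (2.17 ± 1.11), Fdxr (1.72 ± 0.368) and Hsd3b6 (1.49 ± 0.888 CPM per kb) formed the middle tier, in which the ranges of neighbours overlapped. Hsd3b6 was above Star, the next gene, in 18 of 20 libraries, also with overlap. Star (0.195 ± 0.0752) and H6pd (0.140 ± 0.0609) were lower still, and Hsd11b1 was last at 0.0358 ± 0.0300 CPM per kb. H6pd was above Hsd11b1 in all 20 libraries, although their ranges overlapped. The plot of levels per length shows these tiers and the spread of each gene.

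**Figure D2:**
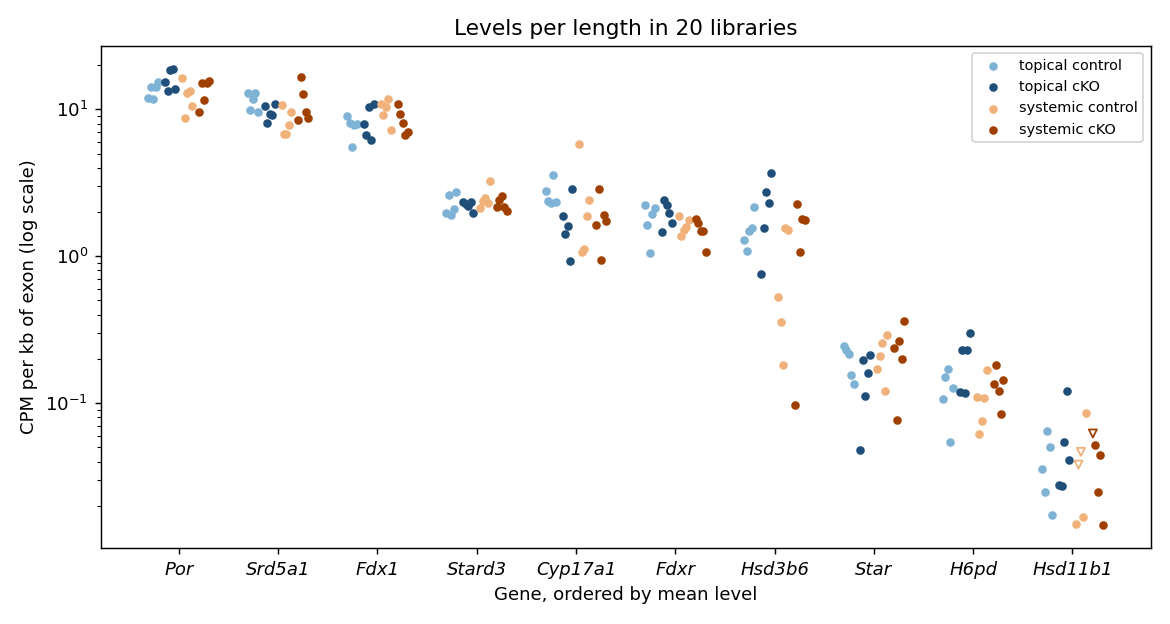
CPM per kb of exon (log scale, y axis) of the 10 genes (x axis, ordered by mean) in 20 libraries; each point is 1 mouse, coloured by group, and open triangles mark libraries with 0 counts at the level of 3 counts. Por, Srd5a1 and Fdx1 sit above the other genes and Hsd11b1 at the bottom.

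Star and Stard3 carry cholesterol. Star (ENSMUSG00000031574, chromosome 8, 25806555 to 25815982), which brings it to the inner mitochondrial membrane, was at 1.01, 0.946, 0.887, 0.643 and 0.554 CPM in topical controls 1, 3, 5, 6 and 7. In topical cKO 2, 3, 4, 5 and 7 it was at 0.196, 0.807, 0.462, 0.664 and 0.871 CPM. All 5 topical cKO values lay below the control median, but the ranges overlapped. In the systemic mice Star was at 0.702, 0.862, 1.05, 0.5004 and 1.19 CPM in controls 1, 3, 4, 5 and 6, and at 0.969, 0.318, 1.09, 0.822 and 1.501 CPM in cKO 2, 4, 5, 6 and 7. These values rest on 5 to 49 counts per library, and the 2 systemic groups overlapped. Stard3 (ENSMUSG00000018167, chromosome 11, 98358368 to 98381112), a cholesterol-binding protein of late endosomes, was the steadiest of the 10 genes. It averaged 8.06 ± 1.40 CPM in topical control, 7.90 ± 0.507 in topical cKO, 8.92 ± 1.54 in systemic control and 8.05 ± 0.809 (SD, n = 5 each) in systemic cKO, with 6.76 CPM the lowest and 11.6 CPM the highest of the 20.

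Hsd3b6 and Cyp17a1 act on the steroid itself and varied most of the 9 better counted genes (SD 59.8% and 51.1% of the mean over 20 libraries). Hsd3b6 (ENSMUSG00000027869, chromosome 3, 98805504 to 98814443), a 3-beta-hydroxysteroid dehydrogenase, was at 2.32, 1.95, 2.66, 2.79 and 3.92 CPM in topical controls 1, 3, 5, 6 and 7, and at 1.37, 2.83, 4.92, 4.16 and 6.62 CPM in topical cKO 2, 3, 4, 5 and 7. Systemic controls 1, 3, 4, 5 and 6 had 0.957, 0.647, 0.329, 2.79 and 2.72 CPM. Systemic cKO 2 had 0.176 CPM, the lowest of all, from 2 counts, and systemic cKO 4, 5, 6 and 7 had 4.06, 1.93, 3.23 and 3.19 CPM. The highest library was thus 37.6 times the lowest, and every pair of groups overlapped. Of the 50-base words in Hsd3b6 transcripts, 13.2% also occur in those of Hsd3b2, so reads there could belong to either gene, although Hsd3b2 had no counts.

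Cyp17a1 (ENSMUSG00000003555, chromosome 19, 46667165 to 46673172), the hydroxylase and lyase that leads to androgens, was at 7.67, 6.57, 6.42, 9.85 and 6.47 CPM in topical controls 1, 3, 5, 6 and 7. Topical cKO 2, 3, 4, 5 and 7 had 5.21, 3.92, 4.46, 2.55 and 7.93 CPM, so 4 of 5 lay below the lowest control. Systemic control 1 had 16.0 CPM, while systemic controls 3, 4, 5 and 6 had 2.96, 3.09, 5.22 and 6.71 CPM. Systemic cKO 2, 4, 5, 6 and 7 had 4.49, 7.92, 2.60, 5.25 and 4.81 CPM and lay within the range of the systemic controls, except for cKO 5.

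Hsd11b1 and H6pd serve the reactivation of glucocorticoid. Hsd11b1 (ENSMUSG00000016194, chromosome 1, 193221634 to 193264075) had 3, 2, 4, 3 and 2 counts in topical controls 1, 3, 5, 6 and 7, and 3, 2, 3, 20 and 2 in topical cKO 2, 3, 4, 5 and 7. It had 1, 0, 0, 1 and 15 counts in systemic controls 1, 3, 4, 5 and 6, and 0, 9, 3, 3 and 1 in systemic cKO 2, 4, 5, 6 and 7. The 20 and the 15 counts came from topical cKO 5 and systemic control 6, so topical cKO 5 reached 0.511 CPM, the highest of all. They were the deepest libraries of their groups (29.8 and 27.1 M counts), with the most genes detected (16695 and 18750). These 2 libraries also had the highest summed fibroblast markers (7 genes) of their groups. The sum ran from 7.78 to 11.8 CPM in topical control, 7.29 to 30.9 in topical cKO, 5.36 to 16.6 in systemic control and 6.44 to 10.8 in systemic cKO. Summed endothelial markers (4 genes) ran from 1.05 to 4.14 CPM in topical control, 1.77 to 6.18 in topical cKO, 0.702 to 3.43 in systemic control and 0.875 to 2.73 in systemic cKO, and were again highest within their groups in topical cKO 5 and systemic control 6. Summed adipocyte markers (5 genes) ran from 0.143 to 0.404, 0 to 0.74, 0.0539 to 0.447 and 0.125 to 0.443 CPM in the same order of groups, with the highest value in topical cKO 5. Among systemic controls they were highest in control 1, not in control 6. Adipoq and Lep had under 3 counts in each group, Retn in both topical groups and Plin1 in topical control, while Cidec reached 3 in each. The part of these cell types in the Hsd11b1 counts was not tested. Hsd11b1 differed by 0.073 (topical genotype), 0.026 (systemic genotype), -0.088 (route in controls) and -0.13 (route in cKO) on the log2(CPM + 1) scale. Without topical cKO 5 the difference of Hsd11b1 by route in cKO was -0.058. No comparison of it passed an exact two-sided permutation test, with p from 0.198 (systemic against topical cKO) to 0.889 (adjusted p 0.794 to 1). Without systemic control 6, the difference of systemic from topical controls was -0.17 instead of -0.088 (exact permutation p = 0.0159, unadjusted, against 0.357 with it). H6pd (ENSMUSG00000028980, chromosome 4, 149979475 to 150009023) was at 0.555, 0.789, 0.887, 0.286 and 0.665 CPM in topical controls 1, 3, 5, 6 and 7. In topical cKO 2, 3, 4, 5 and 7 it was at 0.627, 1.21, 0.615, 1.20 and 1.57 CPM, so 3 of 5 were above every control. It averaged 0.548 ± 0.213 CPM (SD, n = 5) in the injected controls and 0.697 ± 0.185 CPM in the injected cKO.

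Srd5a1 (ENSMUSG00000021594, chromosome 13, 69573449 to 69611442), a steroid reductase that clears glucocorticoid and makes the stronger androgen from testosterone, had genotype differences of opposite sign after the 2 routes, neither of which passed the test. It was at 37.8, 28.8, 34.2, 37.4 and 27.9 CPM in topical controls 1, 3, 5, 6 and 7, and at 30.5, 23.6, 27.2, 26.6 and 31.5 CPM in topical cKO 2, 3, 4, 5 and 7. All 5 cKO values lay below the control median. Systemic controls 1, 3, 4, 5 and 6 had 31.3, 19.8, 19.7, 22.8 and 27.7 CPM, and systemic cKO 2, 4, 5, 6 and 7 had 24.5, 48.3, 36.9, 27.95 and 25.5 CPM. Here all 5 cKO values lay above the control median, and cKO 4 was the highest of the 20 libraries. A share of 15.1% of its transcripts' 50-base words is common to Gm17108, a gene on the same strand, and reads there cannot be assigned.

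The electron donors were steady. Por (ENSMUSG00000005514, chromosome 5, 135670033 to 135735326), which feeds the P450 enzymes of the endoplasmic reticulum, averaged 54.3 ± 6.30 CPM in topical control, 64.2 ± 10.4 (SD, n = 5 each) in topical cKO, 49.8 ± 11.7 in systemic control and 53.9 ± 10.6 in systemic cKO. Fdx1 (ENSMUSG00000032051, chromosome 9, 51943306 to 51963556), which hands electrons to mitochondrial P450 enzymes, averaged 23.8 ± 3.92, 26.1 ± 6.49, 30.8 ± 5.50 and 26.0 ± 5.34 CPM in the same order. Fdxr (ENSMUSG00000018861, chromosome 11, 115268024 to 115277050), its reductase, averaged 5.04 ± 1.34, 5.47 ± 1.09, 4.55 ± 0.587 and 4.22 ± 0.776 CPM. Per kb, Fdx1 was above Fdxr in all 20 libraries, by 2.77 to 7.49 times and 5.18 ± 1.30 times on average (SD, n = 20).

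**Figure D3:**
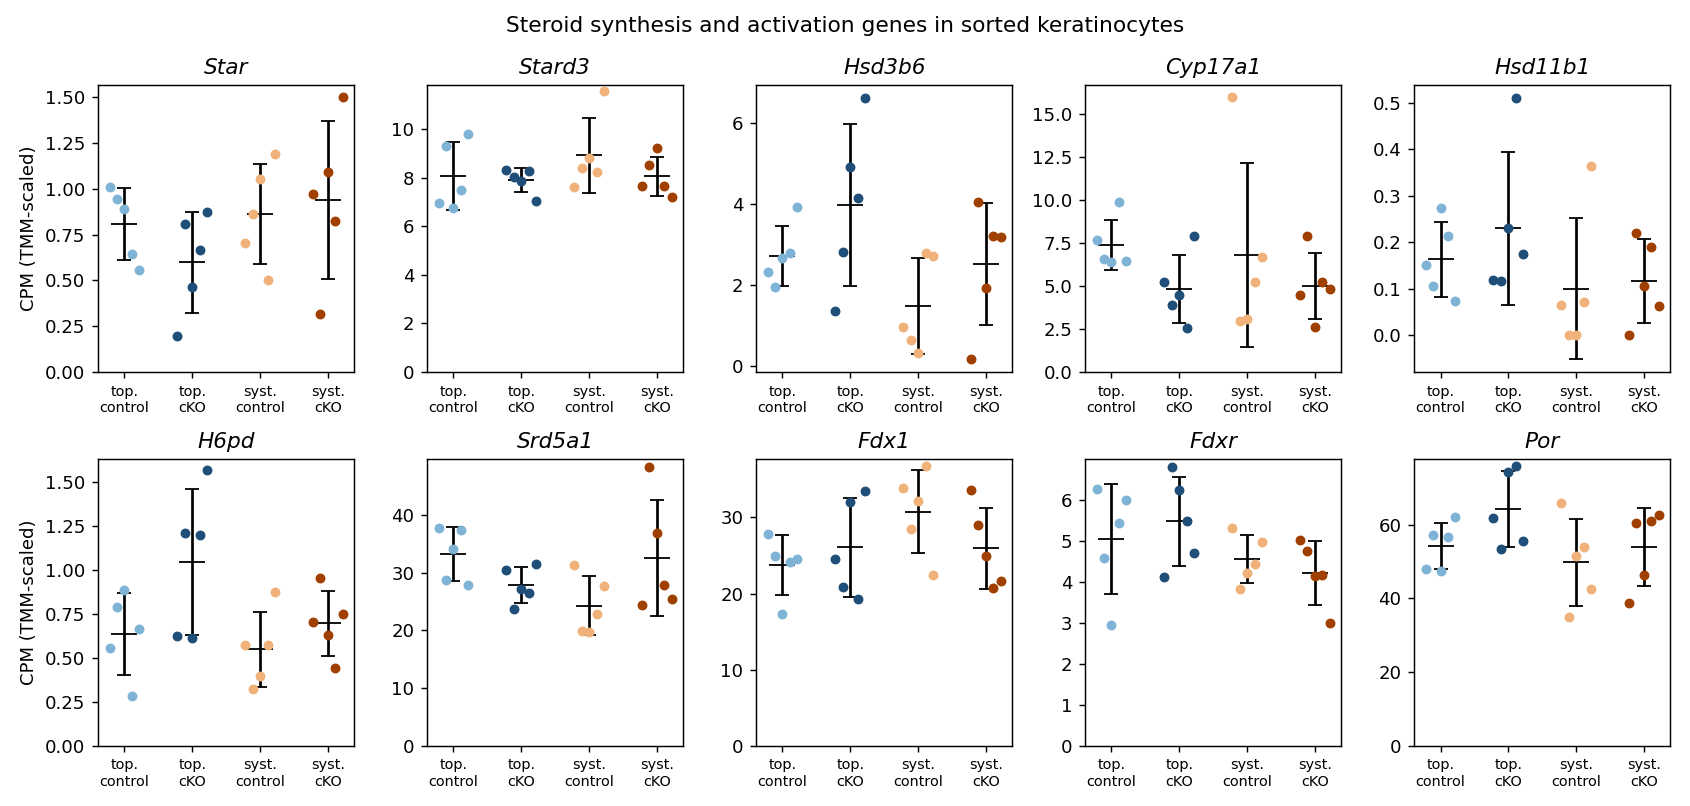
CPM (TMM-scaled, y axis) of the 10 genes in the 4 groups (x axis); each point is 1 mouse, the bar its group mean and the whiskers the SD of 5 mice. The groups overlap in every panel, and Cyp17a1 in systemic control holds 1 library, at 16.0 CPM, above the rest.

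The genotype comparisons set mice with tamoxifen-activated Cre, meant to delete Cyp11b1 in keratinocytes, against mice without Cre. Cre activity and loss of Cyp11b1 cannot be told apart. After topical tamoxifen, 0 of the 9 genes that passed the low-count filter were called at an adjusted p under 0.05 (edgeR quasi-likelihood test, Benjamini-Hochberg over 12424 genes), and over all genes tested 0.129% were called. None of the 9 had an unadjusted p under 0.05, against 5.66% of all genes, and DESeq2's Wald test called 0 of the 9 in this and the 4 other comparisons. In 5 the estimate was above 0 and in 4 below, with a median log2 fold change of 0.11 against 0.020 over all genes. The estimates farthest from 0 were H6pd at 0.69 (SE 0.35, 95% interval -0.045 to 1.43, adjusted p = 0.919 in edgeR) and Cyp17a1 at -0.64 (SE 0.38, interval -1.44 to 0.16). Srd5a1 was at -0.25 (interval -0.62 to 0.12) and Star at -0.45 (interval -1.31 to 0.40), each with all 5 cKO values below the control median. Without topical cKO 2, Star was at -0.20. Hsd3b6 was at 0.51, with an interval from -0.55 to 1.58, and at 0.26 without topical cKO 7. A 2-fold change in either direction (1 on the log2 scale) lay outside the intervals of Stard3 (-0.32 to 0.26), Por (-0.11 to 0.60), Srd5a1, Fdx1 (-0.25 to 0.50) and Fdxr (-0.30 to 0.52).

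After systemic tamoxifen, 0 of the 9 genes were called, against 1.89% of all genes. Where 15.3% of all genes had an unadjusted p under 0.05, 1 of the 9 did. This was Srd5a1, at a log2 fold change of 0.43 (SE 0.18, interval 0.063 to 0.80, edgeR adjusted p = 0.238), with 32.6 ± 10.0 CPM in cKO and 24.3 ± 5.12 CPM in control (SD, n = 5 each). Without systemic cKO 4 the estimate was 0.24. With Gm10800 over 50 CPM as a covariate it was 0.011, a value that in the cKO group rests on systemic cKO 2 alone. Hsd3b6 had the largest estimate, 0.75, with an interval from -0.35 to 1.85. With that covariate it was -3.08, a value that in the cKO group rests on systemic cKO 2 alone. Cyp17a1 was at -0.42 (interval -1.21 to 0.36), at 0.15 without systemic control 1 and at -0.89 with log2 Gm10800 as a covariate. Estimates of the 6 other genes had intervals that included 0: H6pd 0.32, Por 0.12, Star 0.059, Fdxr -0.11, Stard3 -0.15 and Fdx1 -0.24. With Gm10800 over 50 CPM as a covariate Por turned to -0.36, Fdxr to 0.14 and Fdx1 to 0.13, which again rest on systemic cKO 2 in the cKO group. The median over the 9 genes was 0.059, against -0.0045 over all genes.

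The genotype effect after injection less that after topical treatment was called in 0 of the 9 genes and in 0.25% of all genes. Srd5a1 again had the smallest p: its genotype effect was 0.68 higher on the log2 scale in systemic than in topical mice (SE 0.25, interval 0.16 to 1.20, unadjusted p 0.0125, edgeR adjusted p = 0.209). Over the settings tried, its adjusted p ran from 0.0859 to 0.9998, and the estimate was 0.26 with Gm10800 over 50 CPM as a covariate. The other 8 genes had intervals that included 0, with estimates of 0.51 for Star, 0.24 for Hsd3b6, 0.22 for Cyp17a1, -0.12 for Stard3, -0.13 for Por, -0.22 for Fdxr and -0.37 for both H6pd and Fdx1. Of these, Hsd3b6 was at -3.59 with the same covariate, Fdxr at 0.031 and Fdx1 at 0.00095.

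Injection was compared with topical treatment within each genotype. In controls 0 of the 9 genes were called, against 18.3% of all genes. Where 32.9% of all genes had an unadjusted p under 0.05, 1 of the 9 did. This was Srd5a1, at -0.45 after injection (SE 0.18, interval -0.82 to -0.081, edgeR adjusted p = 0.0796), with all 5 systemic controls below the topical median. Its edgeR adjusted p was 0.0361 without systemic control 1 and 0.0453 with mitochondrial percent as a covariate. With Gm10800 over 50 CPM as a covariate the estimate was 0.056, a value that rests on systemic cKO 2 for the split. Fdx1 was at 0.37 (interval -0.0022 to 0.74, adjusted p = 0.154 in edgeR), and at -0.11 with that covariate. Hsd3b6 had the estimate farthest from 0, -0.84 (interval -1.94 to 0.27), and turned to 3.26 with it. The 6 others had intervals that included 0: Stard3 0.15, Star 0.13, Cyp17a1 -0.12, Por -0.13, Fdxr -0.15 and H6pd -0.17. Of these Cyp17a1 turned to 0.081 and Por to 0.44 with that covariate, and Star to -0.23 with log2 Gm10800. In cKO mice 0 of the 9 genes were called, against 9.22% of all genes, and 0 had an unadjusted p under 0.05, against 23.1% of all genes. Star had the estimate farthest from 0, 0.64 (interval -0.21 to 1.48), with 4 of 5 systemic cKO values above the topical median. Its estimate was 0.39 without topical cKO 2 and 0.90 without systemic cKO 4. Fdxr was at -0.37 (interval -0.78 to 0.036), with all 5 systemic cKO values below the topical median, and the same held for Hsd3b6 at -0.60 (interval -1.66 to 0.46) and H6pd at -0.55 (interval -1.27 to 0.18). Srd5a1 was at 0.23, Cyp17a1 at 0.094, Stard3 at 0.028, Fdx1 at -0.0017 and Por at -0.25, with intervals that included 0. Without systemic cKO 4, Srd5a1 was at 0.046. The 2 route comparisons and the 2 genotype comparisons share groups. In none of these 4 comparisons were the ranges of 2 groups apart for any of the 9 genes. Over all genes, ranges were apart in 1.4% (topical genotype), 1.94% (systemic genotype), 13.8% (route in controls) and 7.39% (route in cKO).

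**Figure D4:**
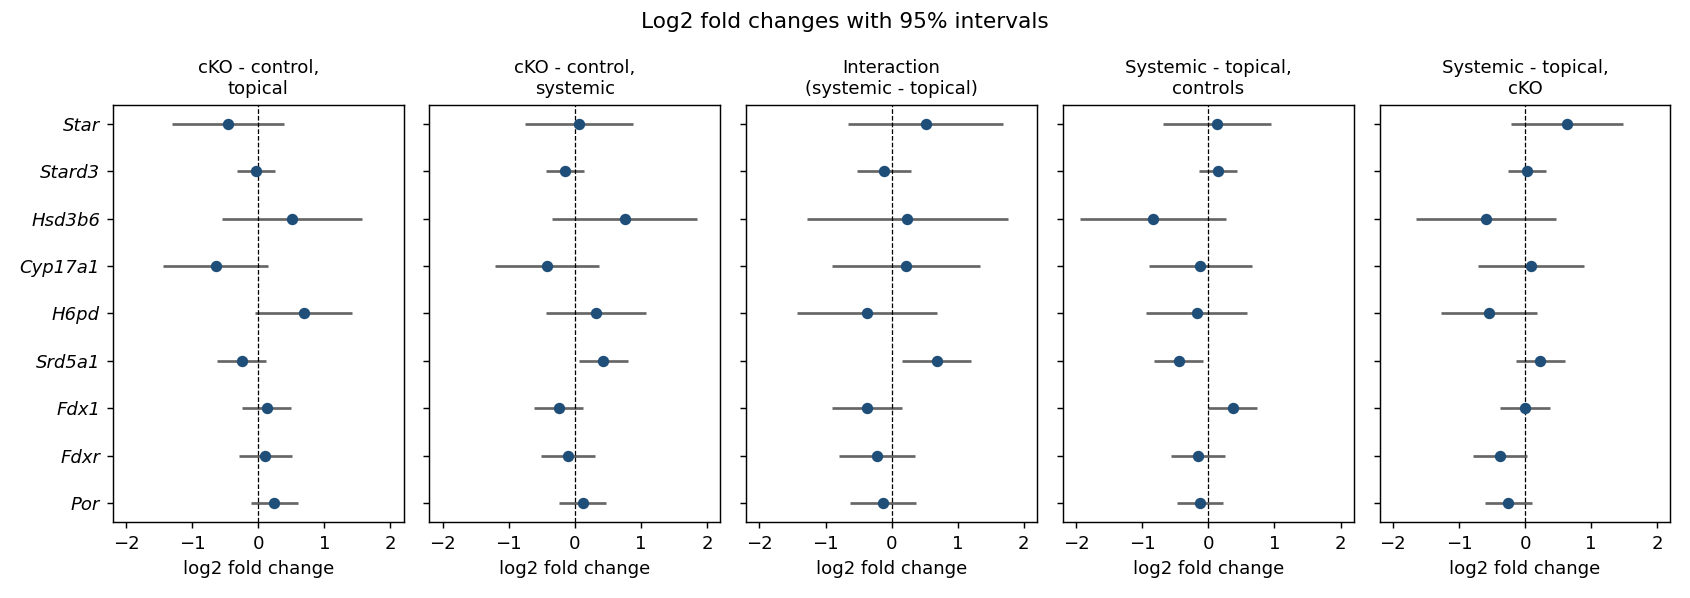
Log2 fold changes (x axis) of the 9 genes that passed the filter (y axis) in 5 comparisons, with lines for 95% intervals from the fit over all 20 libraries. Nearly every line crosses the dashed line at 0; those of Srd5a1 do not in the systemic genotype comparison, the interaction and the route comparison in controls, where the adjusted p was 0.0796 or more.

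Hsd3b6 was lowest where markers of the sebaceous gland, whose cells also make and use steroids, were lowest. Over 81 relations tested, its correlation with them passed at an adjusted p under 0.05 by Pearson's r and not by Spearman's rho, and that of Srd5a1 passed by neither. The summed level of 7 such markers (Mc5r, Awat1, Awat2, Far2, Elovl3, Scd3 and Cidea) ran from 63.3 to 177 CPM in topical control, 74.1 to 245 in topical cKO, 14.9 to 126 in systemic control and 15 to 206 in systemic cKO, with none of the 7 under 3 counts in any group. It was lowest in systemic control 4 (14.9 CPM) and systemic cKO 2 (15 CPM), the 2 libraries with the least Hsd3b6, and 206 CPM in systemic cKO 4, which had the most Srd5a1 (48.3 CPM). Topical cKO 5 and 7 had more of the markers (245 and 212 CPM) but 26.6 and 31.45 CPM of Srd5a1. Deviations from the group means on the log2 scale correlated at r = 0.834 for Hsd3b6 (Spearman's rho 0.802, 20 libraries; permutation p 3.90e-04 and 7.10e-04, adjusted 0.0308 and 0.0575 over 81 relations). Without the 2 libraries farthest on the marker axis r was 0.693. It was 0.583 in the 14 libraries with little Gm10800 and 0.964 in the 6 others. For Srd5a1 r was 0.702 (rho 0.651, permutation p 0.00664 and 0.00876, adjusted 0.134 and 0.177), and 0.634 without the same 2 libraries. In sorted bulk cells, fewer cells of a type and less RNA per cell cannot be told apart. With the summed markers as a covariate, Hsd3b6 was at 0.10 in the topical and 0.61 in the systemic genotype comparison, and Srd5a1 at -0.32 and 0.36, and none was called. By route, Hsd3b6 went from -0.84 to -0.32 in controls and from -0.60 to 0.18 in cKO with this covariate, and Srd5a1 from -0.45 to -0.23 and from 0.23 to 0.45. The 9 listed sebaceous markers had median differences by route of -0.84 in controls and -1.07 in cKO, with 0 called by edgeR (1 and 3 at an unadjusted p under 0.05; DESeq2 called 0 and 1). The part of sebaceous cells in these differences was not otherwise tested. In the same family, Stard3 with the library total passed by Pearson's r only (r = 0.679, rho 0.650, permutation p 7.60e-04 and 0.00358, adjusted 0.0308 and 0.107). Fdx1 with the percent of mitochondrial counts passed by neither (r = -0.696, rho -0.707, permutation p 0.00419 and 0.00395, adjusted 0.113 and 0.107). Without the 2 farthest libraries these were 0.679 and -0.613.

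**Figure D5:**
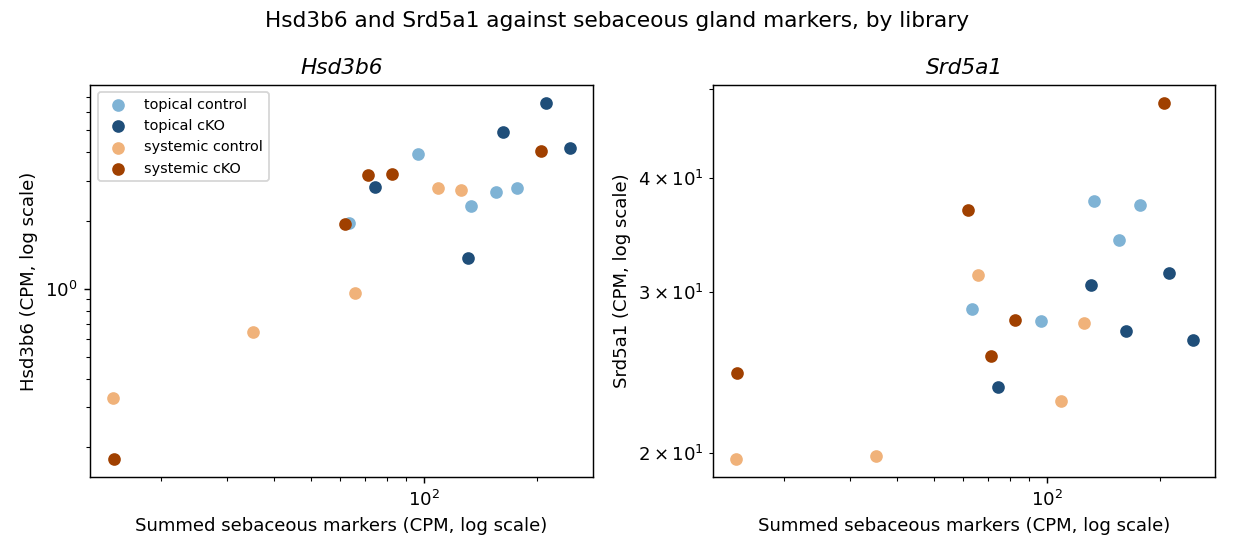
CPM of Hsd3b6 (left) and Srd5a1 (right) on log y axes against the summed CPM of 7 sebaceous gland markers (log x axis); each point is 1 mouse, coloured by group. The libraries with 14.9 and 15 CPM of the markers hold the least Hsd3b6.

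Genes around these 10 were described by lists chosen with earlier results of these data known. Of 8 genes that deliver cholesterol to the mitochondrion, all were tested, and in the systemic genotype comparison 1 rose and 1 fell (median 0.26, against -0.0045 over all genes, of which 1.89% were called). Vdac1, a channel of the outer mitochondrial membrane, rose by 1.53 (SE 0.26, edgeR adjusted p = 0.00342), from 64.7 ± 18.8 CPM in systemic control to 187 ± 77.9 CPM (SD, n = 5 each) in systemic cKO. Atad3a, of the mitochondrial inner membrane, fell by 0.59 (adjusted p = 0.0413 in edgeR), from 47.7 ± 3.11 to 31.7 ± 8.83 CPM. With Gm10800 over 50 CPM as a covariate these were 0.18 and -0.083, values that in the cKO group rest on systemic cKO 2 alone. With log2 Gm10800 they were 0.71 and -0.40 and neither was called (edgeR adjusted p 0.654 and 0.970). In the fit of the systemic libraries alone neither was called either (adjusted p 0.0611 for Vdac1 and 0.175 for Atad3a). Atad3a also lost its call without any 1 of 8 libraries, all but systemic cKO 2 and 4 (-0.75 to -0.49 over the 10).

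By route, 2 of the 8 delivery genes rose and 3 fell in controls, and 1 fell in cKO (list medians -0.38 and -0.16, against 0.00081 and -0.013 over all genes, of which 18.3% and 9.22% were called). Vdac1 fell by 2.18 after injection in controls (edgeR adjusted p = 4.37e-05). Npc2, which hands cholesterol out of lysosomes, fell by 1.02 after injection in controls (edgeR adjusted p = 0.00109) and by 0.88 in cKO (adjusted p = 0.00461). Its partner Npc1 rose by 0.86 in controls (adjusted p = 0.00147 in edgeR). Scarb1, the receptor that takes up cholesterol from HDL, fell by 0.96 in controls (adjusted p = 0.0446) and by 1.62 in cKO (adjusted p = 0.00322), the only 1 of 5 genes of cholesterol uptake, storage and release to be called, in edgeR. In controls Scarb1 lost its call without any 1 of 8 libraries, all but topical control 5 and systemic control 6 (-1.36 to -0.80 over the 10). Hsd3b7, a dehydrogenase of bile acid synthesis, rose by 1.30 and 0.90, from 21.1 ± 3.50 to 51.8 ± 17.9 CPM in controls and from 20.2 ± 2.71 to 37.7 ± 8.96 CPM in cKO (SD, n = 5 each). Srd5a3, a relative of Srd5a1 that serves protein glycosylation, fell by 0.67 and 0.50, and Hsd17b12, which elongates fatty acids, fell by 1.44 in controls. With Gm10800 over 50 CPM as a covariate, estimates in controls rest on systemic cKO 2, since that covariate is there the same split as the route. They were -1.16 for Scarb1, 1.02 for Hsd3b7, -0.67 for Npc2, -0.63 for Vdac1, 0.55 for Npc1, -0.31 for Srd5a3 and 0.36 for Hsd17b12. With log2 Gm10800, Vdac1 kept its call in controls (-1.20, edgeR adjusted p = 0.0278) and the others lost it (adjusted p 0.114 to 0.736). In cKO, Npc2, Scarb1, Hsd3b7 and Srd5a3 kept their call with either covariate (edgeR adjusted p 0.00295 to 0.0149).

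The 6 other electron donors and partners (Fdx2, Cyb5a, Cyb5b, Cyb5r3, Pgrmc1, Pgrmc2) were all tested. Of them 0 were called by edgeR in any of the 5 comparisons, against 0.129% to 18.3% of all genes. At an unadjusted p under 0.05 in edgeR there were 2 in each route comparison and 0 in the 3 others. By route 32.9% (controls) and 23.1% (cKO) of all genes were under that limit. DESeq2 called 1, by route in controls. For 7 genes of NADPH supply 8 identifiers were tested, with both of Nnt. In the systemic genotype comparison 1 rose (1.89% of all genes were called). By route 2 rose and 1 fell in controls (18.3% of all genes), and 1 fell in cKO (9.22%). Me1, the cytosolic malic enzyme, rose by 0.95 in the systemic genotype comparison (SE 0.21, edgeR adjusted p = 0.0218). With Gm10800 over 50 CPM as a covariate it was at 0.054, a value that in the cKO group rests on systemic cKO 2 alone. Pgd, of the pentose phosphate pathway, fell by 0.81 after injection in controls, Idh1 fell by 0.80 in cKO, and both identifiers of Nnt, the mitochondrial transhydrogenase, rose by 0.77 and 0.72 in controls. With Gm10800 over 50 CPM as a covariate, Pgd was at -0.075 and Nnt at 0.42 and 0.47, values that rest on systemic cKO 2 for the split. With log2 Gm10800 they were at -0.29, 0.48 and 0.48 and not called (edgeR adjusted p 0.662 to 0.676). Idh1 in cKO lost its call with the first covariate (-0.69, edgeR adjusted p 0.0717). It kept the call with log2 Gm10800 (-0.77, adjusted p 0.0267). The call of Pgd held without each of the 10 libraries. The call of Me1 ended without any 1 of 5 of its 10 libraries (systemic cKO 4, 5 and 6, systemic controls 3 and 4), and that of Idh1 without any 1 of 7 (all but topical cKO 3 and 4 and systemic cKO 4). For Nnt the numbers were 7 and 8 of 10, all but topical control 5 and systemic control 1 for both identifiers and systemic control 3 for the one at 0.77. Of 12 genes that control steroid synthesis, Creb1 and Prkar1a were tested and not called by edgeR or DESeq2 (0 at an unadjusted p under 0.05), Mc1r reached 3 counts in 10 libraries, and Crhr1 and Mrap reached them in 1 each. Pomc, Crh, Mc2r, Nr5a1, Nr5a2, Nr0b1 and Nr0b2 reached 3 counts in none.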

How the data were processed

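The table the authors deposited gives unnormalized counts (whole reads) for 25719 Ensembl identifiers in 20 libraries, 1 per mouse. STAR, featureCounts and the build GRCm38 (mm10) are named in the submitters' processing notes; versions, strand setting and the handling of multi-mapped reads are not given in the sources used here. Per the labels, RNA of sorted cells (2 M per mouse) was made into SmartSeq II libraries. Gene positions and exon lengths came from GENCODE M21, in which 25614 identifiers were found, among them all 10 members.

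The edgeR 4.0.16 model (R 4.3.3) held all 20 libraries: TMM scaling, filterByExpr (minimum count 10, total 15), a robust quasi-likelihood model with 1 coefficient per group, two-sided F tests and Benjamini-Hochberg adjustment over the 12424 genes kept. SEs are the log2 fold change divided by the root of F, and intervals are 95%. Hsd11b1 and Cyp11b1, under the filter, were compared by exact permutation of log2(CPM + 1). Relations between genes used log2(CPM + 0.5) less the group mean and 100000 permutations within groups. In simulated data with 200 of 12424 genes changed by 1.5 on the log2 scale in topical cKO, 174 were called, with 12 unchanged genes.

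The members and lists were chosen with earlier results of these data known. All members were named in each comparison, with Cyp11b1 and called list genes (at most 3 per list and comparison). Genes most like a member were to be named for called members only, and there were none. Alternatives were DESeq2 1.42.0 size factors and Wald test, other count filters, only the libraries compared, replicate number as a block, sex (summed Y-linked CPM over 5) and mitochondrial percent as covariates, and leaving out each library. Gm10800 (over 50 CPM, or log2) and sebaceous markers as covariates were added after seeing the data, as was leaving Scd1 and Soat1 out of the marker sum.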

Additional observations from a re-analysis of the deposited data

Results flagged for a closer look

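Cyp17a1 in systemic control 1, at 16.0 CPM, stood apart from the 4 other systemic controls, of which the next highest had 6.71 CPM. The gap exceeded Dixon's 95% critical value for 5 samples (0.71). Of 36 groups tested (9 genes in 4 groups) this was the 1 flagged, and chance flags about 1 in 20.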

How the results depend on the processing

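Of 45 results for the 9 tested genes, each recomputed under the alternatives (1005 values), 57 values changed sign and 2 passed the threshold, both for Srd5a1 by route in controls. The causes were not tested. With Gm10800 over 50 CPM as a covariate, signs changed in the systemic genotype comparison for Hsd3b6 (-3.08), Fdx1 (0.13), Fdxr (0.14) and Por (-0.36), and in the interaction for Hsd3b6 (-3.59), Fdx1 (0.00095) and Fdxr (0.031). By route in controls they changed for Cyp17a1 (0.081), Hsd3b6 (3.26), Srd5a1 (0.056), Fdx1 (-0.11), Por (0.44) and Hsd17b12 (0.36). With log2 Gm10800, they changed for Hsd3b6 (-0.60) and Por (-0.22) in the systemic genotype comparison and for Cyp17a1 (-0.33) and Hsd3b6 (-1.34) in the interaction. By route in controls, they changed with it for Star (-0.23), Cyp17a1 (0.51), Hsd3b6 (0.61) and Por (0.32). With sebaceous markers they changed for Star (-0.026) and Cyp17a1 (0.15) by route in controls and Hsd3b6 (0.18) by route in cKO. In the systemic genotype comparison Star was at -0.069 with sex and -0.093 with mitochondrial percent. Fdx1 by route in cKO, at -0.0017, became 0.00060 (all genes with a count), 0.0034 (mean of at least 5 CPM), 0.0080 (sex), 0.049 (mitochondrial percent) and 0.00034 (only the libraries compared).

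The labels do not say whether replicate numbers mark shared litters or days. Same-numbered libraries correlated at -0.383 to 0.405 in their deviations from group means, which cannot decide this. The fit with a replicate block called 9 genes in the topical genotype comparison and 0 in the interaction (1632 at unadjusted p under 0.05 in edgeR; 315 by DESeq2 without the block). The block changed the sign of Cyp17a1 (-0.032) and Fdx1 (0.029) by route in cKO, Hsd3b6 (-0.11) in the interaction and Fdxr (0.0057) in the systemic genotype comparison.

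Counts over all genes moved more. The main counts were 16 (topical genotype), 235 (systemic genotype), 31 (interaction), 2277 (route in controls) and 1145 (route in cKO). DESeq2's Wald test gave 42, 563 and 315 for the first 3. With mitochondrial percent there were 1320, 364 and 3496 for systemic genotype, interaction and route in controls. With either Gm10800 covariate there were 0 for systemic genotype (263 and 571 at unadjusted p under 0.05 in edgeR, 563 called by DESeq2 without it) and 0 for the interaction (306 and 558; DESeq2 315), and 1 and 66 by route in controls. The interaction gave 49 with a mean of at least 5 CPM, 49 with sex and 162 with sebaceous markers, which gave 1181 by route in controls. The systemic libraries alone gave 35. Leaving out 1 library gave 10 to 19, 81 to 787, 16 to 470, 1463 to 2524 and 746 to 1218, in the order of the main counts. The highest counts for systemic genotype and the interaction came without systemic cKO 2. With Gm10800 over 50 CPM as a covariate, counts for these comparisons and for route in controls rest on that library.

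Leaving out 1 library changed the sign of Star in the systemic genotype comparison (-0.17 to 0.32) and by route in controls (-0.040 to 0.25), Stard3 in the topical genotype comparison (-0.088 to 0.051) and by route in cKO (-0.025 to 0.067), and Fdx1 by route in cKO (-0.11 to 0.11). It did so for Cyp17a1 in the systemic genotype comparison (-0.68 to 0.15), the interaction (-0.032 to 0.79) and by route in controls (-0.70 to 0.069) and cKO (-0.15 to 0.33), for Hsd3b6 in the interaction (-0.011 to 0.64) and Fdxr in the topical genotype comparison (-0.029 to 0.21). For Hsd11b1 the ranges were -0.0035 to 0.11 (topical genotype), -0.0068 to 0.11 (systemic genotype) and -0.17 to -0.055 (route in controls), and for Cyp11b1 -0.027 to 0.029 (systemic genotype), -0.15 to -0.040 (route in controls) and -0.057 to 0.018 (route in cKO). Depth limits Hsd11b1 and Cyp11b1, which reached 3 counts in 10 and 3 of 20 libraries.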

Other observations

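By sex, read from Y-linked transcripts, 2 of the listed genes of steroid metabolism were called. Akr1c18, which inactivates progesterone, was at 1.19 to 10.9 CPM in the 10 male libraries and at 14 to 142 CPM in the 10 female ones, with no overlap. With the 4 groups in the fit, the difference of males from females was -2.89 on the log2 scale (SE 0.45, adjusted p = 0.00414, edgeR over 12424 genes). Hsd17b7, which acts in cholesterol synthesis and on estrone, was higher in males by 0.70 (SE 0.13, adjusted p = 0.00806 in edgeR), at 56.5 ± 15.6 CPM against 35.99 ± 9.93 CPM (SD, n = 10 each). Its ranges overlapped, at 31.84 to 83.75 CPM in males and 23.52 to 53.75 CPM in females. Over all genes 0.853% were called by sex. Among the members, Srd5a1 had the smallest p, with 32.2 ± 7.80 CPM in males and 26.8 ± 4.86 CPM in females (log2 difference 0.28, SE 0.12, adjusted p = 0.283 in edgeR). These sexes were inferred from the data, this comparison was added after seeing the data, and the genes were chosen after their values were seen.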
